A study of Homo sapiens with 6 samples.

Results

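EGR1, FOS, FOSB, FOSL1 and JUNB are 5 immediate early transcription factors, described here in 3 human ovarian cancer cell lines after transfection with a microRNA. They were chosen by symbol from the FOS, JUN and EGR families, with the differences between the transfections on these arrays known. All differences between the transfections in these 5 genes are therefore given as a description, without a test. The genes have 8 of the 53617 probe sets of the array, and all 5 are among the 8620 genes whose mean log2 signal over the arrays was at least 5.

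The lines were ES-2, OVCAR-3 and SKOV-3, established lines grown from ovarian cancers. Each line gave 1 array after transfection with miR-blank, the control, and 1 array after transfection with miR-135a-3p, the 3′ strand of the miR-135a hairpin. The 6 arrays therefore form 3 pairs, the lines are the replicates (n = 3), and the spread over replicates combines differences between lines with technical scatter. No age, genotype or further treatment is stated for the cells. The sources used here give neither the form and amount of the transfected RNA nor the hours until harvest. The design asks which transcripts differ after the microRNA. Where 3 values stand together without line names, they follow the order ES-2, OVCAR-3 and SKOV-3. Values are normalised log2 signals of total RNA, and a difference is miR-135a-3p minus miR-blank unless 2 lines are named.

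AP-1 is a dimer of basic leucine zipper proteins in which a FOS family subunit pairs with a JUN family subunit, or JUN subunits pair with each other. EGR1 is a zinc finger factor that binds GC-rich sites and is held in check by the NAB proteins. Genes of both families are transcribed within minutes of a stimulus such as serum, a growth factor, a change of medium or mechanical stress, mostly through ERK and other MAP kinases that act on SRF, its ternary complex factors and CREB, and their transcripts decay fast. FOSL1, which encodes FRA-1, is a later and longer-lived member whose protein is stabilised by ERK and which is known from invasive, mesenchymal carcinoma cells.

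The transfected microRNA and the control regions of the genes are shown first. The mature sequence of miR-135a-3p is printed with its seed, bases 2 to 8, in capitals, because the seed sets which transcripts a microRNA can pair with.
hsa-miR-135a-3p: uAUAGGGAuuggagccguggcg
The other arm of the same hairpin has a different seed.
hsa-miR-135a-5p: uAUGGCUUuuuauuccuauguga
The signal of MIR135A1, the hairpin gene, was 1.75, 2.26 and 2.07 in the controls and 12.57, 12.20 and 11.58 with the microRNA. It rose by a mean of 10.09 ± 0.67 log2 units (SD, n = 3; limma adjusted p 4.83e-05).

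The 250 bases before the start site were read from RefSeq promoters of GRCh38.p14 for the 4 members that were lower together in SKOV-3. The capitals mark a CArG box (the site of SRF), the EGR site GCGNGGGCG or the TATA box TATAAA, each searched on both strands.
EGR1 (chr5:138465229-138465478, plus strand): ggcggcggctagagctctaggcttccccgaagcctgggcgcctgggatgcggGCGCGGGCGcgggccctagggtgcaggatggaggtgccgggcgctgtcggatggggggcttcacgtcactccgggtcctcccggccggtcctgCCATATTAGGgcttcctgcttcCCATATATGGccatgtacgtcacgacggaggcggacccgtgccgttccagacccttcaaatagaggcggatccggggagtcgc
FOS (chr14:75278578-75278827, plus strand): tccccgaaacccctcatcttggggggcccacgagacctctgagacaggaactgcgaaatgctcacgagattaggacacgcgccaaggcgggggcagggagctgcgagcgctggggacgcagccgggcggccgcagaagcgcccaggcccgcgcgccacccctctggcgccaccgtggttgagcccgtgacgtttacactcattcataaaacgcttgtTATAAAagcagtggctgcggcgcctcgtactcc
FOSB (chr19:45467746-45467995, plus strand): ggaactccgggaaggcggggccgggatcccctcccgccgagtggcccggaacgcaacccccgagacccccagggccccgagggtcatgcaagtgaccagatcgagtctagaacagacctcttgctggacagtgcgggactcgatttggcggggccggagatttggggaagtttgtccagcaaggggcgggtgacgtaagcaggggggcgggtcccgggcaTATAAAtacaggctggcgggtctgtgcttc
JUNB (chr19:12791236-12791485, plus strand): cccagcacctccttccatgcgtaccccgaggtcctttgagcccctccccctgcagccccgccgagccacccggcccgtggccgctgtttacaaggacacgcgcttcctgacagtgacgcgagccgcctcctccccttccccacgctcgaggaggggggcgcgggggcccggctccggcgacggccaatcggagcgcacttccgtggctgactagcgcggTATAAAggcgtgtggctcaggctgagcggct
FOSL1 was not matched in the promoter table. EGR1 held 2 CArG boxes, starting 105 and 83 bases before the start site, and 1 EGR site. A CArG box was found in 1.16% and an EGR site in 8.41% of 35116 promoter windows of the same length. FOS, FOSB and JUNB each held TATAAA, 33, 30 and 31 bases before the start, which 10.7% of the windows hold. No CArG box lay in the windows of FOS, FOSB and JUNB, which says only that its letters are not in these 250 bases. The full CRE, TGACGTCA, found in 1.65% of the windows, and the AP-1 site TGANTCA, in 6.57%, were in none of the 4. The CRE core TGACG, which also lies within the full CRE, was in all 4 and in 21.2% of the windows. The GC box GGGCGG, whose letters can overlap those of an EGR site, was in FOS and FOSB and in 42.6% of the windows. These matches describe letters and show no binding.

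EGR1 had the lower signal after miR-135a-3p in each line. The controls read 9.50, 10.38 and 11.70, and the arrays with the microRNA 8.88, 9.48 and 9.74. The SKOV-3 array after miR-blank was the highest of the 6, and the groups overlapped, since the lowest control, ES-2, lay below the SKOV-3 array after the microRNA. The log2 differences were −0.62, −0.90 and −1.96, that is 1.54-fold, 1.86-fold and 3.89-fold lower. Their mean was −1.16 ± 0.71 (SD, n = 3). Without SKOV-3 it was −0.76.

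FOS, the founding FOS family subunit, read 5.90, 8.72 and 8.49 in the controls. It read 5.59, 8.38 and 6.58 with the microRNA. The controls of OVCAR-3 and SKOV-3 were close together, and only the SKOV-3 signal lay more than 1 log2 unit lower after the microRNA. The log2 differences were −0.31, −0.33 and −1.91, with a mean of −0.85 ± 0.92 (SD, n = 3), and −0.32 without SKOV-3.

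FOSB, a second fast FOS family subunit, read 6.05, 6.78 and 8.53 in the controls and 5.86, 6.70 and 6.04 with the microRNA. The SKOV-3 control stood alone, and the other 5 arrays lay between 5.86 and 6.78. The difference was −2.49 in SKOV-3, 5.63-fold lower, against −0.19 in ES-2 and −0.08 in OVCAR-3. The mean of −0.92 ± 1.36 (SD, n = 3) became −0.14 without SKOV-3, so it rests on that pair of arrays.

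JUNB, a JUN family subunit that can dampen the activity of JUN, read 7.05, 8.74 and 10.35 in the controls. With the microRNA it read 6.38, 8.89 and 8.70. ES-2 and SKOV-3 were lower after the microRNA, by 1.60-fold and 3.13-fold, and OVCAR-3 was not. The differences of −0.68, 0.15 and −1.65 had a mean of −0.72 ± 0.90 (SD, n = 3), and −0.26 without SKOV-3.

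FOSL1 parted from the other 4 genes. Its controls read 11.06, 7.70 and 8.74, and its arrays with the microRNA 11.28, 6.56 and 10.42. The SKOV-3 signal was 3.21-fold higher after the microRNA, the OVCAR-3 signal 2.20-fold lower, and the ES-2 signals were close together. The differences of 0.23, −1.14 and 1.68 had a mean of 0.26 ± 1.41 (SD, n = 3). The sign of the mean turned on SKOV-3, and it was −0.45 without that line.

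**Figure D1:**
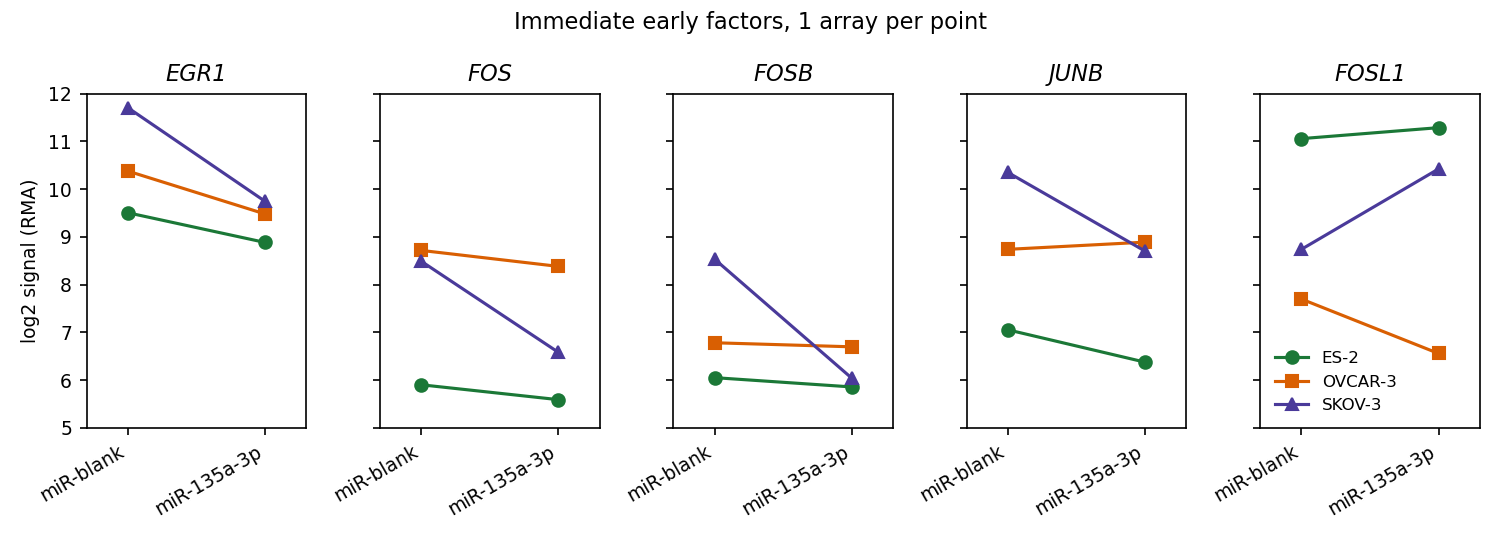
Log2 signal of the 5 genes (vertical axis) after miR-blank and miR-135a-3p (horizontal axis), 1 array per point, with the arrays of a line joined and no error bars. The SKOV-3 lines run down steeply for EGR1, FOS, FOSB and JUNB and up for FOSL1, and the heights of different genes are not comparable, since each has its own probes.

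In SKOV-3, 4 of the 5 members were at least 2-fold lower and 1 was at least 2-fold higher, where 1.66% and 2.34% of all genes tested were. In ES-2, 0 of the 5 were 2-fold lower (0.51% of all genes) and 0 were 2-fold higher (0.162%). In OVCAR-3, FOSL1 alone was 2-fold lower (0.383%) and 0 were 2-fold higher (0.29%). FOSL1 alone passed 2-fold in opposite directions in different lines (0.186%). Since the differences chose the members, nothing is read from these shares. FOSB, EGR1, FOS and JUNB ranked 9, 19, 23 and 37 among the lowest differences of 8620 genes in SKOV-3, and FOSL1 ranked 42 among the highest. In OVCAR-3, FOSL1 ranked 22 and EGR1 42 from the lowest, and in ES-2, JUNB ranked 127 and EGR1 153. EGR1, FOS and FOSB were lower in all 3 lines, as were 13.4% of all genes, and in none of the 5 did the control arrays and the microRNA arrays separate without overlap, which 2.13% of all genes did. The differences of all genes spread wider in SKOV-3, with an SD of 0.482 against 0.299 in ES-2 and 0.297 in OVCAR-3. With 1 array per transfection, no difference within a line has a replicate check.

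**Figure D2:**
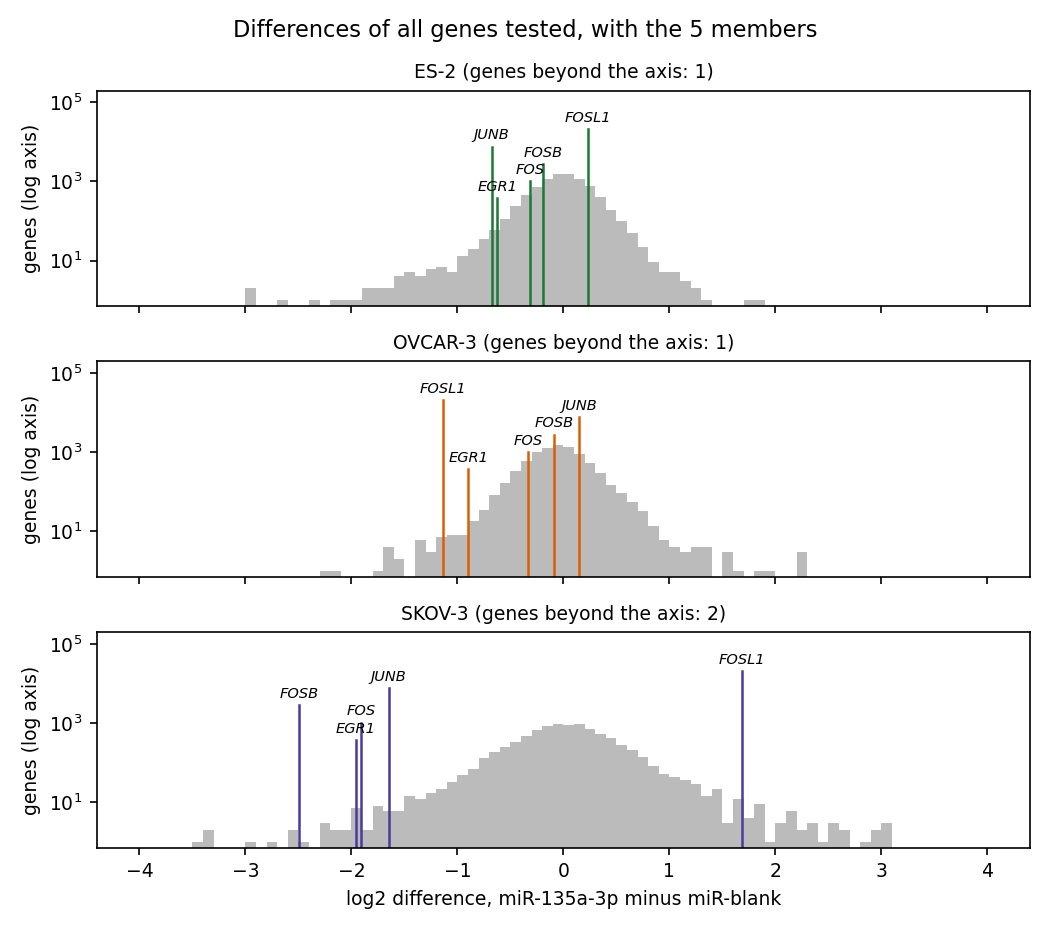
Histograms of the log2 difference (horizontal axis, miR-135a-3p minus miR-blank) over the 8620 genes tested, with the number of genes on a log axis, for ES-2, OVCAR-3 and SKOV-3. Coloured lines, whose heights carry no value, mark the 5 members, which lie in the outer tails in SKOV-3 and mostly inside the bulk in ES-2.

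The lines came closer together in EGR1 and FOSB after the microRNA and further apart in FOSL1. The range over the 3 lines was 2.20 log2 units in the controls and 0.86 with the microRNA for EGR1, and 2.48 and 0.84 for FOSB. It was 3.29 and 2.51 for JUNB, 2.81 and 2.79 for FOS, and 3.36 and 4.73 for FOSL1. The median range over all genes tested was 0.631 and 0.638. For EGR1 and FOSB the narrower range came with a lower SKOV-3 signal, while the control of that line had been the highest array.

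EGR1, FOS and FOSB each have a second probe set. By their place in the order of probe set numbers, the first sets lie among genes of the plus strand, which is the strand of all 3 genes, and the second sets among genes of the minus strand. Of the 10 nearest named neighbours on the same chromosome, 10, 9 and 10 were plus-strand genes for the first sets of EGR1, FOS and FOSB, and 9, 8 and 10 were minus-strand genes for the second sets. Over 11308 probe sets, 96.7% had the strand of most of their 10 neighbours. The annotation states no strand, so the second sets may read transcripts antisense to these genes, or may read the genes themselves.

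The second sets of EGR1 and FOS followed the first sets in SKOV-3. The second EGR1 set read 9.49 in the SKOV-3 control and 7.22 with the microRNA, a difference of −2.27, with −0.60 in ES-2 and −0.84 in OVCAR-3. The second FOS set had differences of 0.02, −0.14 and −1.68. The second FOSB set had 0.08, 0.32 and −0.98, less than the first set in SKOV-3 and of the opposite sign in the other lines. The signals of FOSB outside the SKOV-3 control were thus not lower on both sets.

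**Figure D3:**
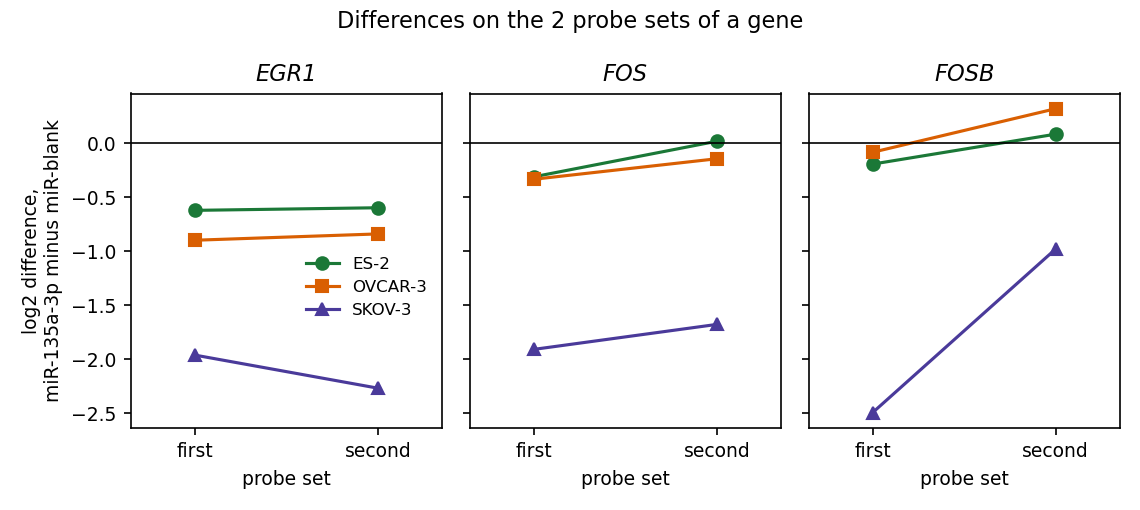
Log2 difference (vertical axis, miR-135a-3p minus miR-blank) on the first and second probe set (horizontal axis) of EGR1, FOS and FOSB, 1 pair of arrays per point. SKOV-3 lies lowest on both sets of each gene, from −2.49 to −0.98. The ES-2 and OVCAR-3 points of FOSB cross 0 between the sets, as does the ES-2 point of FOS, from −0.31 to 0.02.

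The levels of the genes were also compared between the lines. This contrast is orthogonal to that between the transfections, but it uses the same 6 arrays. The members were chosen with their values by line in view, so nothing is read from how many of them were called. For the same reason the adjusted p and the call of a single member are given as a description and are no independent test. Lines were compared with limma, with all 6 arrays and the transfection as a block, and called apart where the p adjusted over all genes was under 0.05 and the fold at least 2. The error there is how far the 2 arrays of each line stray from a common transfection difference, so it is wide for genes whose difference changed from line to line, and nothing says that the arrays of a line came from separate cultures. Of 15 combinations of a member and a pair of lines, 7 were called, and 4 of the 5 members were called in at least 1 pair, against 25.2% of all genes. By pair, ES-2 against OVCAR-3 gave 3 of 5 members (16.5% of all genes), 1 higher (8.65%) and 2 lower (7.82%). ES-2 against SKOV-3 gave 3 (12.1%), 0 higher (4.85%) and 3 lower (7.29%). OVCAR-3 against SKOV-3 gave 1 (14.6%), 0 higher (5.6%) and 1 lower (8.96%).

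FOSL1 had its highest level in ES-2, with a mean of 11.17 over both arrays, against 9.58 in SKOV-3 and 7.13 in OVCAR-3. The ES-2 level exceeded that of OVCAR-3 by 4.04 ± 0.58 log2 units (SE), 16.5-fold, with a limma adjusted p of 0.00329. That difference was 5.09 without the OVCAR-3 control and 2.99 without the OVCAR-3 array after miR-135a-3p, and the call was kept in both. OVCAR-3 was also below SKOV-3 (difference −2.45 ± 0.58, SE, limma adjusted p 0.0247), a call that was lost without the OVCAR-3 array after miR-135a-3p (limma adjusted p 0.15, difference −1.40). It was −3.50 without the OVCAR-3 control, −3.52 without the SKOV-3 control and −1.38 without the SKOV-3 array after miR-135a-3p, and called in each. ES-2 and SKOV-3, neighbours in this order, did not differ beyond the threshold, with a difference of 1.59 and a 95% interval from 0.20 to 2.98 (limma adjusted p 0.0984). That pair was called when either OVCAR-3 array (limma adjusted p 0.0451) or the SKOV-3 array after miR-135a-3p (limma adjusted p 0.000973, difference 2.66) was left out.

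FOS and JUNB ran the other way and were lowest in ES-2. FOS had line means of 5.75, 8.55 and 7.53. ES-2 lay below OVCAR-3, with a difference of −2.80 ± 0.39 (SE, limma adjusted p 0.00304), 6.97-fold, and below SKOV-3, with −1.79 ± 0.39 (SE, limma adjusted p 0.0223). The second of these calls was lost without the ES-2 control (limma adjusted p 0.0822, difference −1.38), without the SKOV-3 control (difference −0.996, under 2-fold, limma adjusted p 0.00489) and with the mean over both probe sets (limma adjusted p 0.0504). It was −2.58 without the SKOV-3 array after miR-135a-3p, and the first was −2.07 with the mean over both probe sets, both called. OVCAR-3 and SKOV-3 were not called apart in FOS (1.01, 95% interval 0.07 to 1.96, limma adjusted p 0.111), but were without the SKOV-3 control, at 1.81 (limma adjusted p 0.000156).

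JUNB had line means of 6.71, 8.81 and 9.52. ES-2 lay below SKOV-3, with a difference of −2.81 ± 0.39 (SE, limma adjusted p 0.00438), 7.01-fold. That difference was −2.12 without the SKOV-3 control and −3.50 without the SKOV-3 array after miR-135a-3p, called in both. Against OVCAR-3 the difference was −2.10 ± 0.39 (SE, limma adjusted p 0.00903), a call lost without the OVCAR-3 array after miR-135a-3p (limma adjusted p 0.0694, difference −1.44), and −2.76 without the OVCAR-3 control. OVCAR-3 and SKOV-3 differed by −0.71, with a 95% interval from −1.64 to 0.23 (limma adjusted p 0.232), and were called apart without the SKOV-3 array after miR-135a-3p, at −1.40 (limma adjusted p 0.00445).

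EGR1 had line means of 9.19, 9.93 and 10.72. Only the ends of this order were called apart, ES-2 minus SKOV-3 at −1.53 ± 0.32 (SE, limma adjusted p 0.0188). That call was lost without the transfection block (limma adjusted p 0.107), without the ES-2 control (0.09) and without the SKOV-3 control, where the difference of −0.93 was under 2-fold. It was −2.13, and called, without the SKOV-3 array after miR-135a-3p. The neighbouring lines differed by −0.73 (95% interval −1.50 to 0.04) and −0.80 (−1.57 to −0.03), and OVCAR-3 and SKOV-3 were called apart at −1.40 without the SKOV-3 array after miR-135a-3p (limma adjusted p 0.000948). FOSB, with line means of 5.95, 6.74 and 7.29, was not called in any pair, and its 95% intervals were wide, from −2.68 to 0.01 for ES-2 minus SKOV-3. Its OVCAR-3 minus SKOV-3 difference changed sign, from −0.55 to 0.63, without the SKOV-3 control, and was called at −1.72 without the other SKOV-3 array (limma adjusted p 0.000233), as was ES-2 minus SKOV-3 at −2.51 (limma adjusted p 3.5e-05).

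**Figure D4:**
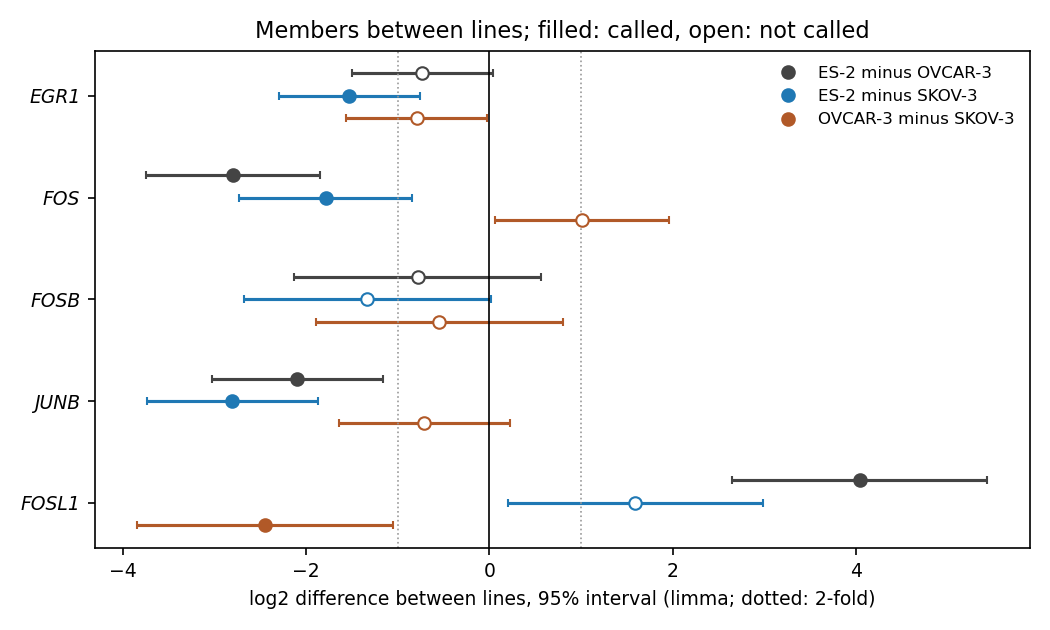
Log2 differences between the lines (horizontal axis) with 95% intervals from limma, for each member (vertical axis) and each pair of lines, 2 arrays per line. Filled points were called, and FOSL1 lies on the positive side for ES-2 minus OVCAR-3 where FOS and JUNB lie on the negative side.

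The AP-1 subunits outside the members were JUN, JUND and FOSL2. JUN and JUND can pair with the FOS family members and with JUNB, and FOSL2 can pair with JUNB. In SKOV-3 these 3 subunits were lower, as were 4 of the 5 members, while FOSL1 was higher. JUN, the partner that FOS proteins need for stable binding to DNA, read 10.03, 8.10 and 10.62 in the controls and 10.35, 8.91 and 9.72 with the microRNA. Its differences of 0.32, 0.81 and −0.90 had opposite signs. JUND, a JUN subunit present also in resting cells, had −0.07, −0.17 and −0.93. FOSL2, which encodes FRA-2, had 0.21, 0.15 and −1.50. All 3 of these subunits outside the members had lower signal in SKOV-3, as had 4121 of the 8620 genes tested, while in ES-2 and OVCAR-3 JUND alone had, against 4402 and 5124 genes. No subunit outside the members passed limma over all genes between the transfections (adjusted p 0.999 for each), where 0.0116% of all genes did, and none had an unadjusted p under 0.05.

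Of the other EGR genes, EGR3 was lower in all 3 lines, by −0.56, −0.27 and −0.34, at signals between 4.65 and 5.43 (limma adjusted p 0.999). EGR4 had 0.58, −0.63 and 0.37, with signals between 4.38 and 6.14. The lowest signals of both lay close above the array medians, which ran from 4.16 to 4.23, so a level above background was not shown for them. EGR2 was not analysed here. The NAB co-repressors, of which NAB2 is itself induced by EGR1, had −0.18, 0.17 and −0.54 (NAB1) and −0.18, −0.74 and 0.14 (NAB2). Of the 4 tested genes of the EGR and NAB list other than EGR1, EGR3 alone was lower in all 3 lines, as were 13.4% of all genes. limma called 0 of the 4, with EGR3 alone at an unadjusted p under 0.05 (0.0277), as were 2.91% of all genes.

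Between lines, JUN was lowest in OVCAR-3, below ES-2 (difference of 1.68, limma adjusted p 0.0192) and below SKOV-3 (OVCAR-3 minus SKOV-3 −1.67, limma adjusted p 0.022). FOSL2 in ES-2 exceeded its level in OVCAR-3 (1.92, limma adjusted p 0.0162), and JUND in ES-2 was below its level in SKOV-3 (−1.66, limma adjusted p 0.00553). Of the 7 AP-1 subunits, 3 were called higher for ES-2 against OVCAR-3 (FOSL1, FOSL2 and JUN, against 8.65% of all genes) and 2 lower (FOS and JUNB, against 7.82%). In ES-2, EGR4 was below its OVCAR-3 level (−1.16, limma adjusted p 0.0297) and NAB1 below its SKOV-3 level (−1.35, limma adjusted p 0.00668).

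**Figure D5:**
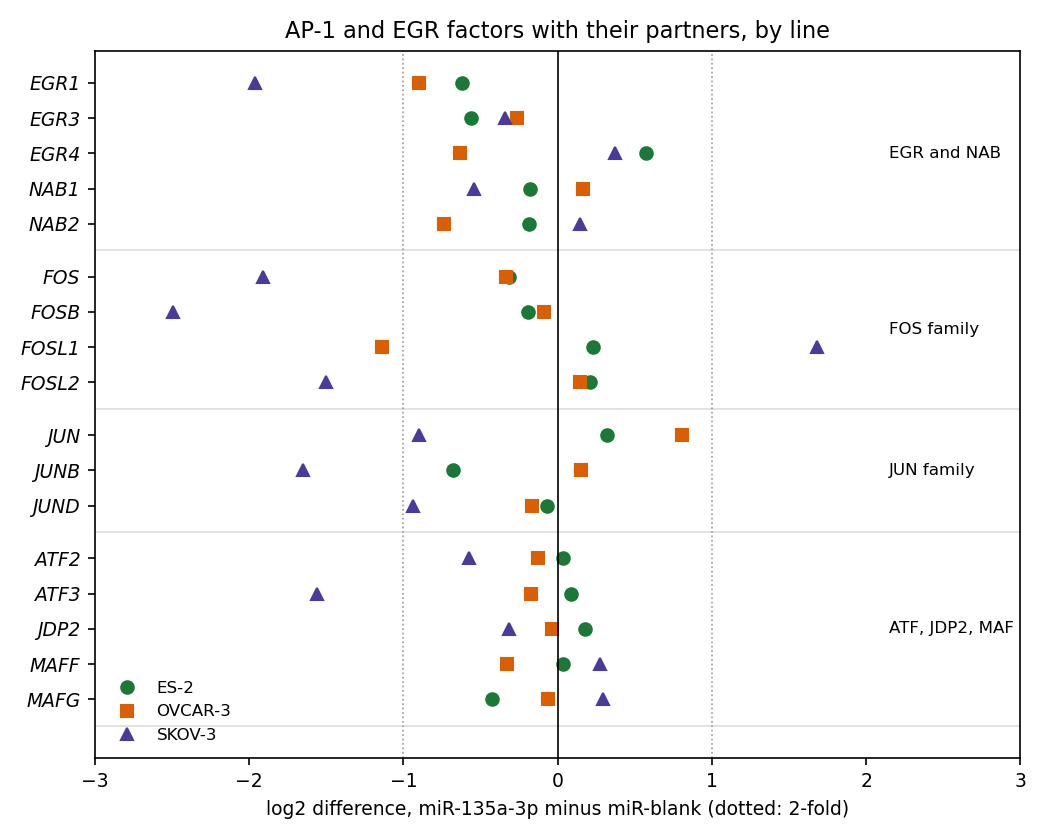
Log2 difference (horizontal axis, miR-135a-3p minus miR-blank) of the tested EGR, NAB, FOS, JUN and partner genes (vertical axis), 1 pair of arrays per point, with dotted lines at 2-fold. SKOV-3 lies left of −1 for EGR1, FOS, FOSB, FOSL2, JUNB and ATF3 and right of 1 for FOSL1.

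Among bZIP partners outside the FOS and JUN families, the stress-induced factor ATF3 had its highest signal in the SKOV-3 control, as FOSB did. ATF3 read 7.10 there and 5.54 with the microRNA, a difference of −1.56, with 0.09 in ES-2 and −0.17 in OVCAR-3. ATF2, which pairs with JUN at CRE sites, had 0.03, −0.13 and −0.58, and the repressor JDP2 had 0.18, −0.04 and −0.31. MAFG, a small MAF protein, had −0.43, −0.06 and 0.30. Of the 5 tested partners of 10 listed, 0 were lower and 0 higher in all 3 lines (13.4% and 9.54% of all genes). limma called 0 of them, with 0 at an unadjusted p under 0.05 (2.91% of all genes).

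The factors and kinases upstream showed small differences. SRF, which binds the CArG box, had −0.07, −0.40 and −0.17, and MAP2K1, a kinase that activates ERK, had −0.01, 0.15 and 0.69, with an ES-2 sign that turned with the scaling of the arrays. The SRF cofactors MRTFA and MRTFB had 0.12, −0.35 and −0.44, and 0.22, 0.04 and −0.56. Of 7 tested genes of 18 listed, 1 was lower in all 3 lines (13.4% of all genes). limma called 0 of the 7, with 0 at an unadjusted p under 0.05 (2.91% of all genes). The list median of the mean differences was −0.10, against −0.01 over all genes tested.

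Among 14 other immediate early genes, 12 had lower signal in SKOV-3, 10 in OVCAR-3 and 7 in ES-2. Of all 8620 genes tested, 4121, 5124 and 4402 had lower signal in these lines, in the same order. Of these 14 genes, the tested ones of 26 listed, 7 were lower in all 3 lines (13.4% of all genes) and 1 was higher in all 3 (9.54%). limma called 0 of them, with 6 lower at an unadjusted p under 0.05 (2.91% of all genes in either direction). The list median was −0.41, against −0.01 over all genes. Its line medians were −0.08, −0.14 and −0.63, against −0.01, −0.05 and 0.02 over all genes. IER2, a nuclear immediate early protein, had −0.57, −0.33 and −0.61, and KLF10, a TGF-beta-induced factor, had −0.17, −0.58 and −0.71. TRIB1, a pseudokinase, was lowest in ES-2, with −0.87 against −0.36 and −0.32. The list was chosen with earlier results of these data known, so its count is no independent evidence of its direction.

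Of the ERK output genes, 7 of 9 tested had higher signal in SKOV-3, as FOSL1 had, and 2, DUSP5 and ETV1, had lower signal. Of all 8620 genes tested, 4498 had higher and 4121 had lower signal there. Of these 9 genes, from 12 listed, 5 were at least 2-fold higher (2.34% of all genes) and 0 at least 2-fold lower (1.66%) in SKOV-3. The list median there was 1.02, against 0.02 over all genes tested. The ERK phosphatase DUSP6 had −0.42, 0.82 and 1.81, DUSP4 had −0.23, 0.51 and 1.27, and the ETS factor ETV4 had −0.21, −0.43 and 1.57. The ETS factor ETV1 had 0.28, −0.38 and −0.21. DUSP5, a nuclear ERK phosphatase, had −0.52, −0.03 and −0.33, and the OVCAR-3 sign turned with the scaling of the arrays. limma called 0 of the 9, with 0 at an unadjusted p under 0.05.

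Among genes known as targets of the factors, few had the same direction in all lines. Of 8 tested AP-1 targets of 15 listed, 0 were lower and 1 was higher in all 3 lines (13.4% and 9.54% of all genes), and in SKOV-3 alone 6 had higher signal, as had 4498 of the 8620 genes tested. The collagenase MMP1 had −0.20, 0.68 and 2.33, from a SKOV-3 control of 2.70, which is below the array median. The chemokine CXCL8 had −0.71, 0.32 and −2.74. The metalloproteinase inhibitor TIMP1 had −0.003, −2.28 and 1.28, with the signs of FOSL1 in OVCAR-3 and SKOV-3. The adhesion receptor CD44 had −0.02, 0.34 and 0.52. The ES-2 signs of TIMP1 and CD44 turned with the scaling of the arrays. Of 5 tested EGR1 targets of 9 listed, 5 had lower signal in SKOV-3 (4121 of 8620 genes) and 4 had higher signal in OVCAR-3 (3493 of 8620). Of these 5, PDGFB alone was lower in all 3 lines and 0 were higher in all 3 (13.4% and 9.54% of all genes). Thrombospondin, THBS1, had 0.06, 0.74 and −3.39, and fibronectin, FN1, 0.14, 2.22 and −0.29. The growth factor chains had −0.19, 0.41 and −0.81 (PDGFA) and −0.23, −0.18 and −0.18 (PDGFB). In OVCAR-3, MMP1 (2.36 and 3.04), CXCL8 (3.21 and 3.53), CD44 (2.74 and 3.09) and THBS1 (3.29 and 4.04) read below the medians of both arrays, 4.19 and 4.23. Their differences in OVCAR-3 may therefore be background. limma called 0 of the 8 and 0 of the 5, with 0 in each at an unadjusted p under 0.05.

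The genes whose signal over the 6 arrays was most like that of a member were sought among 3354 tested genes with a range of at least 1 log2 unit. The correlations are descriptions, since the 6 points share lines and transfections. For EGR1 they were ZNF417 (Pearson r 0.987), TAPBP (0.966) and IFITM4P (0.963), and for FOSB ZNF417 (0.973), ATF3 (0.967) and RRAS (0.962). For FOS they included the clock-controlled factor DBP (0.992) and MAPT (0.986), and for JUNB ABTB2 (0.995), ZNF652 (0.994) and TMEM151A (0.991). For FOSL1 they were FEZ2 (0.997), the ephrin receptor EPHA2 (0.997) and WLS (0.995). A Pearson r of at least 0.95 was reached by 98 genes for FOSL1, 61 for JUNB, 48 for FOS, 8 for FOSB and 4 for EGR1, so few genes shared the pattern of EGR1 and FOSB and many that of FOSL1, which differed mainly between lines. EPHA2 had 0.02, −0.39 and 0.92 and DBP −0.44, −0.02 and −2.20 as differences. Between members, Pearson r was 0.935 for EGR1 and FOSB, 0.859 for EGR1 and JUNB, and −0.92 for FOS and FOSL1 over the 6 arrays.

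The labelled cell type was set against markers. The keratin KRT18 lay between 9.36 and 10.47 on all arrays, while EPCAM lay above the array median on 1 of 6 arrays. KRT7 lay between 3.82 and 6.75, KRT8 between 5.29 and 6.75, and KRT19 between 4.705 and 5.20. CLDN7 read 9.24 and 8.97 in OVCAR-3 and between 4.87 and 5.26 in the other lines. The differences were −0.38, 1.03 and −1.53 for KRT7 and −0.80, 0.72 and 0.62 for KRT8. They were −0.10, −0.12 and 0.59 for KRT18 and 0.39, −0.27 and 0.15 for CLDN7. The OVCAR-3 control of KRT7, at 3.82, read below that array's median, 4.19, so the KRT7 difference there may in part be background. PAX8, of the Mullerian lineage, read 8.80 and 8.12 in SKOV-3 and between 4.12 and 4.80 in the other lines, with differences of 0.63, −0.21 and −0.68. The other 3 tested ovarian markers were higher in all 3 lines, as were 9.54% of all genes. MSLN had 0.34, 0.18 and 1.41, and SOX17 had 0.19, 0.55 and 0.17. WT1 had 0.03, 0.36 and 1.005, and its ES-2 sign turned with equal array medians. Of the 4 ovarian markers, limma called 0 (adjusted p 0.999 for each). MSLN alone had an unadjusted limma p under 0.05 (0.0395), as had 2.91% of all genes. The part of these shifts in the members' SKOV-3 differences was not tested. Of 6 leukocyte markers 3 were named on the array, and their summed log2 signal ran from 16.06 to 19.44 after miR-blank and from 16.19 to 19.62 after miR-135a-3p. CD14 was below the median on every array. CD68, a lysosomal protein of macrophages and other cells, lay above it on all 6 arrays and had a difference of 2.24 in SKOV-3. TYROBP lay above it on all 6 arrays as well, between 4.97 and 5.87, with differences of −0.05, 0.45 and 0.70. Of 4 endothelial markers 3 were named, with sums from 12.33 to 13.17 and from 12.60 to 12.91. VWF lay above the array median on 6 arrays, KDR on 4 and PECAM1 on 1, with highest signals of 4.59, 4.91 and 4.35. The part of other cells in the differences of the members was not tested.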

How the data were processed

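RNA from a silica-column kit was labelled along whole transcripts, per the labels' protocols. The authors deposited log2 signals, 1 column per array. Per the submitters' processing notes the tools were RMA, Transcriptome Analysis Console 3.0 and Expression Console 1.4, whose roles are not stated. The log2 scale was read from the values. RMA makes the arrays' distributions equal, so a shift of most genes one way would be removed. No detection calls were used, so low signals may be background. Precision is limited by the number of arrays.

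Of 53617 probe sets, 16098 had 1 gene symbol in the platform annotation, all matched by Entrez identifier to RefSeq names of GRCh38.p14, 0 had several and 37519 were unnamed here. Where a gene had more than 1 probe set, the set with the highest mean was kept. Genes with a mean of at least 5 were tested, 8620 of 14884. Two-sided moderated tests of limma 3.58.1 (R 4.3.3), with Benjamini-Hochberg adjustment, were fitted to all genes, for the transfections with the line as a block and for the lines with the transfection as a block. Pairing follows from the shared cell line. Paired arrays deviated together from their group means (r 0.904 for ES-2, 0.91 for OVCAR-3, 0.759 for SKOV-3). The fits were tested on simulated data.

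The members and lists were chosen with earlier results of these data known. Named genes were the members, the AP-1 and EGR families, up to 4 genes per other list with the largest mean difference, and the 3 genes most like each member, of which 1 gene is not reported here. ETV1 and the named cell type markers were singled out after their values were seen, and the CRE core was added then. Alternatives were other filters (none, or a mean of at least 6), fits without the block, without moderation or with a trend, rescaled arrays (medians, quantiles, cyclic loess), averaged probe sets, and each line or array left out.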

Additional observations from a re-analysis of the deposited data

Results flagged for a closer look

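FOSL1 went opposite ways in SKOV-3 and OVCAR-3 by more than 2-fold each, with log2 differences of 1.68 and −1.14 (miR-135a-3p minus miR-blank), as 0.186% of all genes tested did. The difference between these lines was not tested, because a line has a single array for each transfection.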

How the results depend on the processing

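Each member's mean difference between the transfections stayed within 1 SD over the lines of the value reported in all 60 combinations of a member and an alternative. Most of the alternatives could not fail this rule, so the count shows little. Fits without the block, without moderation or with a trend, and the other filters, leave the mean as it is. Leaving out 1 of 3 lines cannot move it by 1 SD. Without SKOV-3 the mean of FOSB still went from −0.92 to −0.14, and that of FOSL1 from 0.26 to −0.45. Between the transfections, limma called 1 gene, MIR135A1, as reported, 1 with no replicate block (no pairing by line), 0 without variance moderation and from 1 to 4 with a line left out, 4 of them without SKOV-3. The line block changed no call, and leaving out the transfection block changed 1 call of a member, that of EGR1 given above. For the lines, 225 combinations of a member, a pair of lines and an alternative kept the reported side of the threshold in 200 and lost a call in 15, all named above or without variance moderation, where every member's call was lost. They gained a call in 8 and reversed in 2, both for FOSB in OVCAR-3 minus SKOV-3, at 0.083 without the OVCAR-3 control and 0.63 without the SKOV-3 control, in a range from −1.72 to 0.63 with 1 array left out. Without variance moderation the calls were 0 for ES-2 minus OVCAR-3, 4 for ES-2 minus SKOV-3 and 0 for OVCAR-3 minus SKOV-3, against 1420, 1046 and 1255 as reported. With 1 array left out the last count ran from 808 to 1409, at its lowest without the OVCAR-3 array after miR-135a-3p and at 817 without the OVCAR-3 control. Equal medians, quantile and cyclic loess normalization moved the array medians over the genes tested by at most 0.0503 and turned the sign of no within-line difference of a member. With an array left out, the lone array of its line is assumed to vary like the others. The fit between lines has few residual degrees of freedom, and the cause of the lost calls was not tested.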

Other observations

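The SKOV-3 array after miR-blank was the highest of the 6 arrays for many immediate early genes. This held for EGR1, FOSB and JUNB among the members and for 4 of 7 AP-1 subunits, FOSB and JUNB included. It held for 6 of 14 other immediate early genes (IER2, IER3, DUSP1, KLF6, KLF10 and CSRNP1), against 17.8% of all genes tested. It also held for 3 of 5 bZIP partners (ATF2, ATF3 and JDP2) and 3 of 5 EGR1 targets (PDGFB, THBS1 and GDF15). It held for 2 of 7 genes upstream, 2 of 8 AP-1 targets and 0 of 9 ERK output genes. The trait was thus not confined to the lists of immediate early genes. By definition, a gene with this trait has a SKOV-3 control above both other lines and a lower SKOV-3 signal after miR-135a-3p. Neither is therefore a separate result. With 1 such array the level of that control has no replicate check. These genes were singled out after their values were seen.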
